A study of Rattus norvegicus with 17 samples.

Results

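Il7r, Sh2d2a and Vav1, 3 genes of lymphocyte signalling, were followed in the kidney transcriptome of rats after sub-total nephrectomy (SNx). They were chosen by name, with earlier results of these data known. Their identifiers in the deposited tables (ENSRNOG00000058446 for Il7r, ENSRNOG00000013294 for Sh2d2a and ENSRNOG00000050430 for Vav1) were found through the gene symbols that the study lists. These genes are 3 of 23487 in the count table, of which 15438 were expressed highly enough to be tested. The questions were whether the 3 genes differed between operated and control kidneys, and whether their rise followed the severity of injury or was even over the operated kidneys.

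RNA came from kidneys, in 12 SNx and 5 NoOp libraries, each of which is assumed here to come from a different rat. The animals were male Wistar Han rats. In SNx, part of a kidney is resected and the opposite kidney is taken out, so that the remnant fails progressively. The labels call the controls NoOp and give no ages. The study had a pair of SNx experiments, and the libraries are assumed here, from their number, to be those of its study 2, whose controls its text calls sham. Study rats were killed at different times, not every operated rat reached the functional threshold set for disease, and the sources used here do not tell which of the 12 did. The labels number the SNx libraries in a lower and an upper range, 6 in each, with all NoOp libraries in the lower range, and do not say what the ranges mean. The SNx libraries held 19210434 to 30784070 counts in total and the NoOp libraries 30454170 to 43876369. By the study's account RNA integrity varied widely over its samples, and the part of RNA quality in the levels was not tested here. Of the 7 proximal tubule markers with an identifier, all were detected in every library, with summed levels of 1706 to 15126 CPM in SNx and 20444 to 23939 CPM in NoOp. CPM is the count of a gene relative to the scaled total of its library. Markers of the distal tubule and of podocytes had no identifier in the sources and were not analysed here.

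Il7r encodes the alpha chain of the interleukin-7 receptor, which pairs with the common gamma chain Il2rg and signals through JAK kinases and STAT factors to keep lymphocytes alive. Sh2d2a encodes TSAd, an SH2-domain adapter of T cells that binds the kinase Lck. Vav1 is a guanine nucleotide exchange factor of blood cells that is phosphorylated after antigen receptors are engaged and activates Rac and related GTPases. All belong mainly to white blood cells, which lie in the interstitium of the kidney in small numbers and accumulate there in chronic kidney disease. In whole tissue, more cells of a type and more RNA per cell cannot be told apart.

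All 3 genes had a promoter in RefSeq, and the bases before the annotated gene start are shown because the genes moved together between the groups. Positions refer to the GRCr8 build, while the deposited tables rest on rn6, so no position of one is used with the other. The window of Il7r lies at chr2:60204938-60205167 on the minus strand, that of Sh2d2a at chr2:175609877-175610126 on the plus strand and that of Vav1 at chr9:2248705-2248855 on the plus strand, all 5′ to 3′. Capitals mark the only match to any of 3 motifs searched on both strands, which were chosen after the sequences had been seen. These were AGGAAG (the core bound by ETS factors), TGTGGT (the core bound by RUNX factors) and TTCNNNGAA (the element bound by STAT factors).
Il7r: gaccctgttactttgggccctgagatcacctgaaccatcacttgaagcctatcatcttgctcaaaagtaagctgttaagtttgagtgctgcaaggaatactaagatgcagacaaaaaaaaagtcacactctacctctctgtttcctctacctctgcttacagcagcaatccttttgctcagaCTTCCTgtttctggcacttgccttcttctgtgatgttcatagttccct
Sh2d2a: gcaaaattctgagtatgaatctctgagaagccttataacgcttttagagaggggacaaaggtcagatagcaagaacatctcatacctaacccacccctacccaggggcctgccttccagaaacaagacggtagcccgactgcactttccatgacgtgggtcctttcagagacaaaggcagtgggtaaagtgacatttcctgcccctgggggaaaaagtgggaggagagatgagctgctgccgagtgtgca
Vav1: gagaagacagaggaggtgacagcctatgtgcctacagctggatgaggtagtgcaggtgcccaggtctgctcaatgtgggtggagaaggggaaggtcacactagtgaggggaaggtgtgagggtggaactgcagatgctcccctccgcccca
The Il7r window held AGGAAG on its reverse strand, ending 43 bases before the gene start, a motif found in 27.3% of 33469 RefSeq promoter windows of the same 230 bases. The other motifs were not matched in it, and none was matched in the 250 bases of Sh2d2a or the 151 bases of Vav1. In windows of 250 bases AGGAAG was found in 29.5%, TGTGGT in 14.5% and TTCNNNGAA in 7.67% of promoters. The match is a description of letters, and binding was not measured.

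All 3 genes were upregulated in SNx kidneys, and for each of them every SNx library lay above every NoOp library. Of all tested genes, 30.3% were significantly higher and 27.7% lower in SNx at FDR < 0.05, and in 13.5% every SNx library lay above every NoOp library. Of the 2003 tested genes with a symbol, 53.4% were significantly higher. The members were found through these symbols, which stem from genes the study gives as significantly changed, so their calls are no independent evidence. The levels in each library are on the scale of log2 CPM, with a prior count of 2, and can be compared between libraries but not between genes.

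Il7r, the receptor chain, was at 0.19, 0.16, 0.18, 0.08 and -0.44 log2 CPM in NoOp 1 to NoOp 5. In the SNx libraries it ranged from 1.89 in SNx 5 over a median of 2.53 to 3.22 in SNx 7. The lowest SNx library was 1.69 above the highest NoOp library, so the groups were far apart, and among the controls NoOp 5 stood below the other 4. The means were 2.50 ± 0.39 (SD, n = 12) and 0.04 ± 0.27 (SD, n = 5), from 81 to 261 counts per SNx library and 19 to 38 counts per NoOp library. The fitted log2 fold change was 2.58 (SE 0.22, 95% interval 2.11 to 3.05, edgeR adjusted p = 2.72e-07). On the linear scale this was 5.77 ± 1.59 CPM against 0.963 ± 0.171 CPM.

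Sh2d2a, the adapter, was at -0.35, -0.38, -0.55, -0.15 and -0.92 log2 CPM in NoOp 1 to NoOp 5. Its SNx libraries ranged from 1.43 in SNx 11 over a median of 2.05 to 2.40 in SNx 1. The groups were separated by 1.58 on the log2 scale, and SNx 9 and SNx 11 were the only SNx libraries below 1.81. The means were 2.02 ± 0.31 (SD, n = 12) in SNx and -0.47 ± 0.29 (SD, n = 5) in NoOp. The log2 fold change was 2.61 (SE 0.20, 95% interval 2.19 to 3.03, edgeR adjusted p = 1.14e-07), or 4.06 ± 0.83 CPM against 0.659 ± 0.139 CPM. Counts were low in the controls, at 13 to 32 per library against 56 to 156 in SNx, and the spread of the 5 NoOp libraries was no larger than that of counting (chi-square per degree of freedom 0.727).

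Vav1, the exchange factor, was at 2.28, 1.87, 1.97, 2.25 and 1.37 log2 CPM in NoOp 1 to NoOp 5. It ranged from 3.40 in SNx 11 over a median of 4.08 to 4.52 in SNx 1 among the operated rats. Here the distance between the lowest SNx and the highest NoOp library was 1.13, and 4 SNx libraries (SNx 4, SNx 6, SNx 8 and SNx 11) lay between 3.40 and 3.59 while the others were at 3.85 or above. The means were 3.95 ± 0.37 (SD, n = 12) and 1.95 ± 0.37 (SD, n = 5). The log2 fold change was 2.03 (SE 0.21, 95% interval 1.59 to 2.47, edgeR adjusted p = 1.40e-06), or 15.9 ± 4.0 CPM against 3.88 ± 0.92 CPM.

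**Figure D1:**
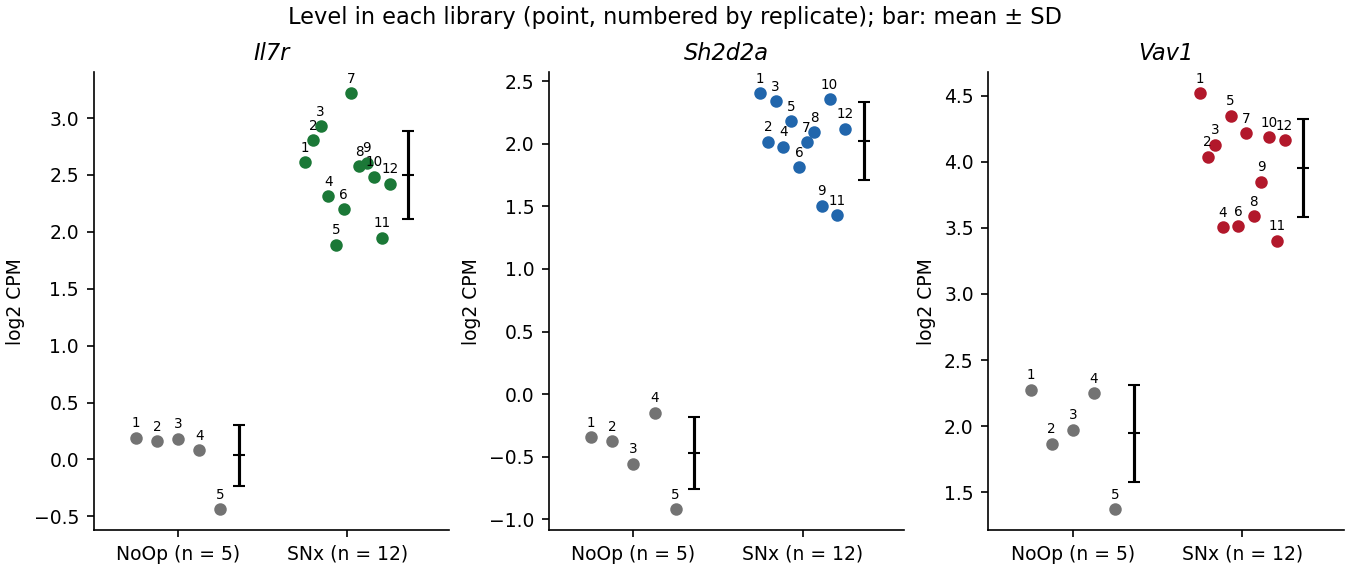
Level of Il7r, Sh2d2a and Vav1 (log2 CPM) in each NoOp and SNx library, 1 point per library with its replicate number, and the mean with its SD as a bar. Every SNx point lies above every NoOp point, NoOp 5 is the lowest control in all 3 panels, and the lowest SNx library is SNx 5 for Il7r and SNx 11 for Sh2d2a and Vav1.

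NoOp 5 was the lowest control for all 3 genes. Its leukocyte markers moved with them, since the summed level of 12 such markers was 106 to 156 CPM over the NoOp libraries and genes such as Ptprc were also lowest in NoOp 5. The part of leukocyte content in these levels was not tested. When any 1 of the 17 libraries was left out, the log2 fold changes remained between 2.47 and 2.63 for Il7r, 2.51 and 2.71 for Sh2d2a, and 1.91 and 2.11 for Vav1, all past the threshold.

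The rise was next measured in single operated kidneys, as the difference from the mean of the 5 controls. It was 1.85 to 3.18 on the log2 scale for Il7r, or 3.61-fold to 9.09-fold. It was 1.90 to 2.87 for Sh2d2a, or 3.72-fold to 7.33-fold, and 1.46 to 2.57 for Vav1, or 2.74-fold to 5.94-fold. No operated kidney was therefore near the control level of any of the genes.

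A pair of genes served as an index of injury. Slc3a1 encodes a subunit of an amino acid transporter of the proximal tubule brush border, and Lcn2 encodes lipocalin 2, which injured tubules secrete. Slc3a1 was 7.25 to 11.22 log2 CPM in SNx and 11.67 to 12.04 in NoOp, while Lcn2 was 4.94 to 7.70 in SNx and 1.14 to 1.96 in NoOp. Within SNx the index genes ran opposite to each other, with a slope of Lcn2 on Slc3a1 of -0.66 log2 per log2 (SE 0.09, edgeR adjusted p = 6.79e-05). SNx 1 had the least Slc3a1 and SNx 5 the most Lcn2, while SNx 11 had the most Slc3a1 and the least Lcn2 of the operated kidneys.

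The members were more even over the operated kidneys than the index genes. Between the highest and the lowest SNx library Il7r differed 2.52-fold, Sh2d2a 1.97-fold and Vav1 2.17-fold, against 15.6-fold for Slc3a1 and 6.78-fold for Lcn2. Of the 15438 tested genes, 36.1% had a larger SD over the SNx libraries than Il7r, 47.1% a larger SD than Sh2d2a and 38.0% a larger SD than Vav1. The corresponding shares were 3.15% for Slc3a1 and 6.74% for Lcn2. Against genes within 0.5 log2 CPM of the same mean, 44.3% of 1345 exceeded Il7r, 70.0% of 1199 exceeded Sh2d2a and 27.6% of 2330 exceeded Vav1, so genes of a like level were found on both sides of each member. The rise in a kidney was also present at the mild end of the index, since SNx 11 was above the mean of the controls by 1.91 for Il7r, 1.90 for Sh2d2a and 1.46 for Vav1. The corresponding rises in SNx 1, with the least Slc3a1, were 2.58, 2.87 and 2.57. In SNx 5, with the most Lcn2, they were 1.85, 2.65 and 2.40, so that for Il7r the rise was smaller there than in SNx 11.

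**Figure D2:**
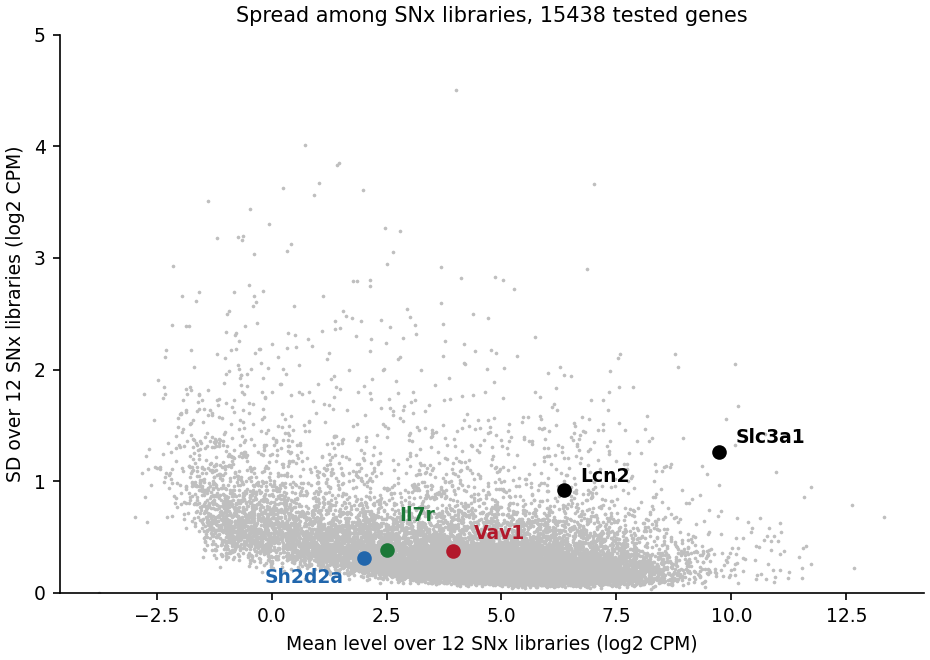
SD over the 12 SNx libraries (vertical axis, log2 CPM) against the mean level over the same libraries (horizontal axis, log2 CPM) for 15438 tested genes in grey, with the members in colour and the index genes in black. Il7r (SD 0.39), Sh2d2a (0.31) and Vav1 (0.37) lie within the cloud of genes of their level, while Slc3a1 (1.27) and Lcn2 (0.92) lie above most genes of theirs.

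The spread of the members in SNx was compared with that in NoOp as the mean distance of a library from the median of its group. It was 0.29 in SNx and 0.15 in NoOp for Il7r, 0.23 and 0.20 for Sh2d2a, and 0.31 and 0.26 for Vav1. The differences did not pass the test (two-sided exact permutation test over 6188 splits, n = 12 and 5, p = 0.269, 0.770 and 0.699), which does not show that the spreads were alike. Without NoOp 5 the difference for Il7r was 0.26 and passed (exact permutation test, p = 0.0418, n = 12 and 4). The distance in NoOp was then 0.034. However, over all 5 NoOp libraries the spread of Il7r was no larger than that of counting (chi-square per degree of freedom 0.743). For Slc3a1 the distances were 0.99 and 0.09 (exact permutation test, p = 0.0229), and for Lcn2 0.73 and 0.22 (exact permutation test, p = 0.0551). Sampling of counts did not account for the whole spread within SNx, where chi-square per degree of freedom was 13.1 for Il7r, 5.18 for Sh2d2a and 29.0 for Vav1.

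Whether the members followed the index within the 12 SNx libraries was tested with a slope in edgeR, as the change in log2 level per log2 unit of the index gene. On Slc3a1, 51.4% of the other 15437 genes passed FDR < 0.05 in either direction and 26.2% passed with a negative slope, so a slope past the threshold was common. Sh2d2a had a slope of -0.17 (SE 0.07, 95% interval -0.31 to -0.03, adjusted p = 0.0430) and Vav1 a slope of -0.19 (SE 0.07, 95% interval -0.33 to -0.05, adjusted p = 0.0271). Il7r had a slope of 0.03 (SE 0.09, 95% interval -0.18 to 0.23, adjusted p = 0.825). Over the whole range of Slc3a1 in SNx, 3.97 on the log2 scale, the fitted level of Sh2d2a fell by 0.67 and that of Vav1 by 0.76, while that of Il7r differed by 0.11. The log2 fold changes between SNx and NoOp were 2.61, 2.03 and 2.58 for Sh2d2a, Vav1 and Il7r.

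The calls for Sh2d2a and Vav1 on Slc3a1 were close to the threshold, while the slopes moved little when single libraries were left out. That of Sh2d2a missed the threshold when any 1 of 8 libraries was left out and that of Vav1 when any 1 of 4 was, with adjusted p = 0.137 for Sh2d2a and 0.160 for Vav1 without SNx 1, the library with the least Slc3a1. Leave-one-out values lay between -0.19 and -0.13 for Sh2d2a and between -0.22 and -0.16 for Vav1, so the direction was kept. With the total count of the library as a further term, the slope of Sh2d2a was -0.25 (adjusted p = 0.0517) and that of Vav1 was larger, at -0.32, and past the threshold (adjusted p = 0.0139). On Lcn2, where 45.4% of genes passed, 0 of the 3 members did so with edgeR or with limma-voom, and 1 (Vav1) had an unadjusted p under 0.05, as 53.0% of genes had. The slopes were 0.18 (SE 0.10, adjusted p = 0.144) for Sh2d2a, 0.23 (SE 0.10, adjusted p = 0.0787) for Vav1 and -0.09 (SE 0.13, adjusted p = 0.586) for Il7r. For Vav1 this changed when SNx 6 was left out (slope 0.32, adjusted p = 0.00923) or SNx 7 (slope 0.26, adjusted p = 0.0498).

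The same relations were given as correlations of log2 CPM over the 12 SNx libraries, 9 in all with 100000 permutations each. Sh2d2a and Slc3a1 had Pearson r = -0.65 (permutation p = 0.0222, adjusted 0.100) and Spearman rho = -0.72 (permutation p = 0.0105, adjusted 0.0316). Vav1 and Slc3a1 had r = -0.60 (permutation p = 0.0415, adjusted 0.124) and rho = -0.72 (permutation p = 0.0104, adjusted 0.0316). Both were lower at high Slc3a1, past the threshold after adjustment as ranks but not as linear relations. The rank relations of both missed it when any of SNx 1, SNx 4, SNx 5, SNx 9, SNx 10 or SNx 11 was left out, with rho from -0.85 to -0.64 for Sh2d2a and from -0.84 to -0.64 for Vav1 over all leave-one-out sets. Without SNx 1 and SNx 5, the libraries farthest from the median of Slc3a1, r was -0.56 for Sh2d2a (permutation p = 0.0970) and -0.25 for Vav1 (permutation p = 0.466), so that the linear relation of Vav1 rested on these libraries. Il7r and Slc3a1 had r = 0.11 (permutation p = 0.728, adjusted 0.728) and rho = -0.03 (permutation p = 0.939, adjusted 0.939).

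With Lcn2, r was 0.51 for Sh2d2a (permutation p = 0.0912, adjusted 0.176), with rho = 0.64 (permutation p = 0.0280, adjusted 0.0630). It was 0.50 for Vav1 (permutation p = 0.0977, adjusted 0.176), with rho = 0.57 (permutation p = 0.0567, adjusted 0.102), and without SNx 4 and SNx 11, the libraries farthest from the median of Lcn2, r was 0.30 and 0.11. None of these passed after adjustment. Il7r and Lcn2 had r = -0.19 (permutation p = 0.560, adjusted 0.630) and rho = -0.20 (permutation p = 0.542, adjusted 0.610). Without SNx 4 and SNx 11 r was -0.81 (permutation p = 0.00339, adjusted 0.0305), since these libraries had the least Lcn2 together with low Il7r (2.31 and 1.95), whereas among the other 10 Il7r was highest at 5.68 log2 CPM of Lcn2 in SNx 7 and lowest at 7.70 in SNx 5.

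**Figure D3:**
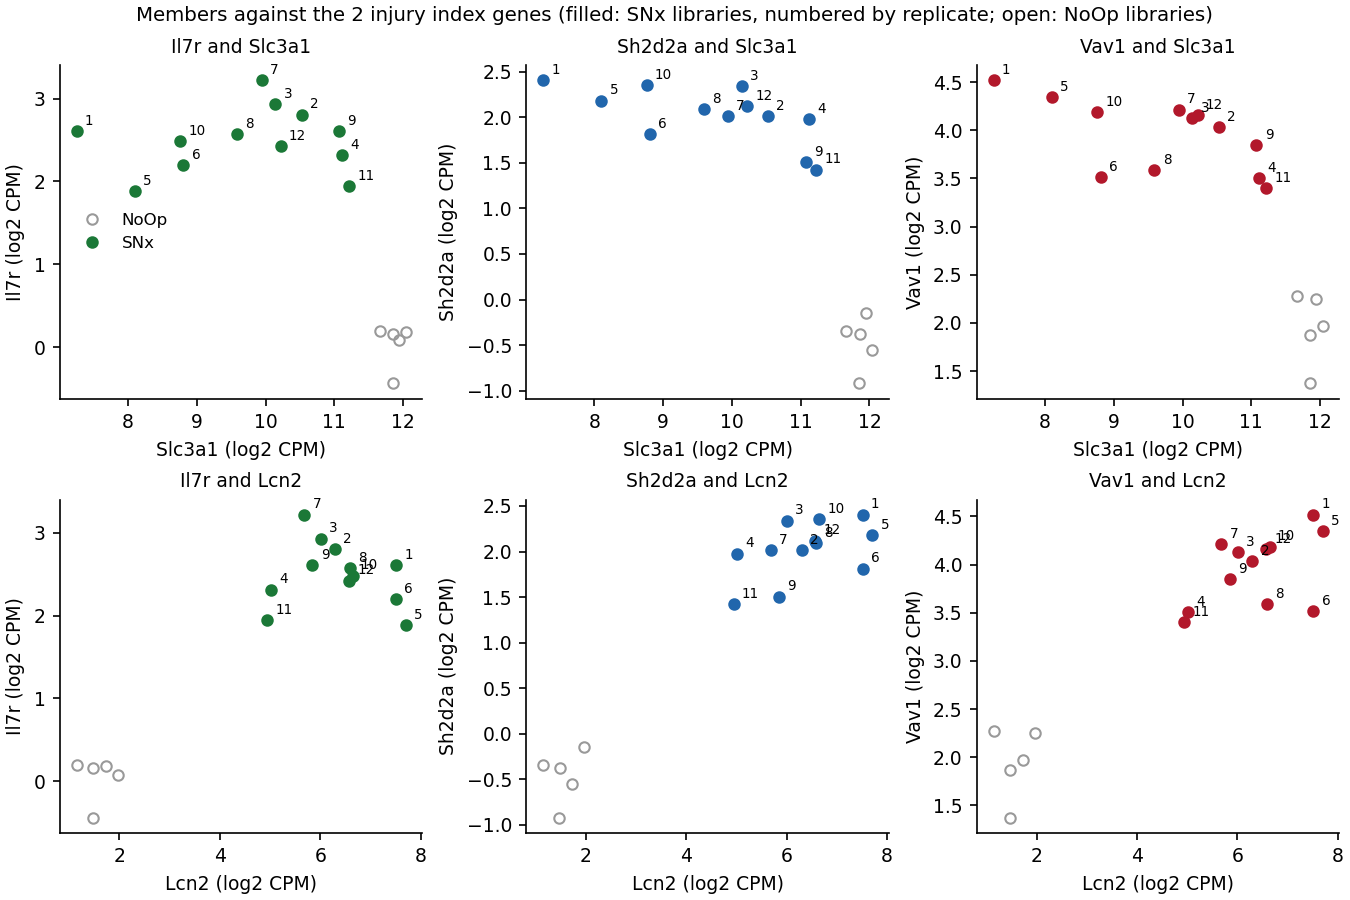
Level of each member (vertical axes, log2 CPM) against Slc3a1 (upper row) and Lcn2 (lower row, horizontal axes in log2 CPM), filled points for 12 SNx libraries with their replicate numbers and open points for 5 NoOp libraries. SNx and NoOp points do not overlap on any axis, Sh2d2a and Vav1 slope down with Slc3a1 (r = -0.65 and -0.60), and Il7r shows no slope with it (r = 0.11).

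Within the number ranges of 6 SNx libraries each, r with Slc3a1 was -0.41 in the lower and -0.95 in the upper range for Sh2d2a, -0.62 and -0.53 for Vav1, and 0.36 and -0.35 for Il7r. With Lcn2 it was 0.15 and 0.84 for Sh2d2a, 0.49 and 0.50 for Vav1, and -0.42 and 0.23 for Il7r. Thus the direction was the same in both ranges for Sh2d2a and Vav1 and opposite for Il7r, and no value passed after adjustment over the 9 relations (exact permutation tests, n = 6). The levels in the upper range minus those in the lower range differed by -0.20 for Sh2d2a, -0.11 for Vav1 and 0.08 for Il7r (two-sided exact permutation test over 924 splits, n = 6 and 6, p = 0.286, 0.626 and 0.727).

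The difference between members in their relation to the index was tested as well, with a comparison added after the data were seen. The log2 difference of Sh2d2a and Il7r correlated with Slc3a1 at r = -0.59 (permutation p = 0.0414, adjusted over 6 relations 0.0829) and with Lcn2 at r = 0.56 (permutation p = 0.0568, adjusted 0.0852). That of Vav1 and Il7r correlated with Slc3a1 at r = -0.62 (permutation p = 0.0293, adjusted 0.0829) and with Lcn2 at r = 0.60 (permutation p = 0.0360, adjusted 0.0829). Hence Il7r was not shown to differ from the other members after adjustment, although each of these 4 values passed on the deposited normalized log2 values (permutation tests, adjusted p = 0.0375). Without the 2 libraries farthest from the median of Lcn2, the difference of Sh2d2a and Il7r also passed (r = 0.84, adjusted permutation p = 0.0146). Sh2d2a and Vav1 did not differ detectably from each other in this respect (r = 0.07 with Slc3a1 and -0.10 with Lcn2).

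Among themselves, Sh2d2a and Vav1 had r = 0.71 (permutation p = 0.0101, adjusted 0.0907) and rho = 0.78 (permutation p = 0.00466, adjusted 0.0316) over the SNx libraries. Sh2d2a and Il7r had r = 0.31 (permutation p = 0.324, adjusted 0.417), and Vav1 and Il7r had r = 0.36 (permutation p = 0.247, adjusted 0.370). The libraries with the highest level of 1 member were thus not the same for all, as SNx 7 led for Il7r and SNx 1 for the other two.

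Other genes of the same pathways were read from lists of which only part had an identifier. The symbols at hand stem from the genes the study gives as significantly changed, so a high count of changed genes in a list is no independent evidence. Among the 2003 tested genes with a symbol, 53.4% were significantly higher and 40.5% lower in SNx, with a median log2 fold change of 0.49 against 0.02 over all tested genes. Of 26 genes of common gamma chain cytokines and JAK-STAT signalling, 7 had an identifier and all 7 rose, with a median log2 fold change of 2.50. Besides Il7r these included Il21r, the interleukin-21 receptor (2.50, SE 0.25, adjusted p = 9.94e-07), and Il2rg, the common gamma chain with which Il7r pairs (1.61, SE 0.20, adjusted p = 8.58e-06). Il7, the ligand of Il7r, was singled out after its value was seen, and rose from -1.06 ± 0.89 (SD, n = 5) to 1.51 ± 0.50 (SD, n = 12) log2 CPM (log2 fold change 2.60, SE 0.36, adjusted p = 2.39e-05). Its counts were low in the controls, at 3 to 26 per library.

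Of 52 genes of antigen receptor signalling, 17 had an identifier, Sh2d2a and Vav1 among them, and all 17 rose, with a median of 1.70. In 15 every SNx library lay above every NoOp library, as in 13.5% of all tested genes. Sh2d2a had the lowest p-value of them, followed by Was, the actin regulator mutated in Wiskott-Aldrich syndrome (1.79, SE 0.15), and Rac2, the Rac GTPase of blood cells (1.92, SE 0.18). Lck, the kinase to which TSAd binds, and the CD3 chains had no identifier and were not analysed here. Of 20 genes of Vav and Rac signalling in leukocytes, 12 had an identifier and all 12 rose, with a median of 1.79. They included Arhgap30, a GTPase-activating protein (2.01, SE 0.16), Coro1a, an actin-binding coronin of leukocytes (2.12, SE 0.18), and Nckap1l, a subunit of the actin-regulating WAVE complex (1.82, SE 0.15).

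**Figure D4:**
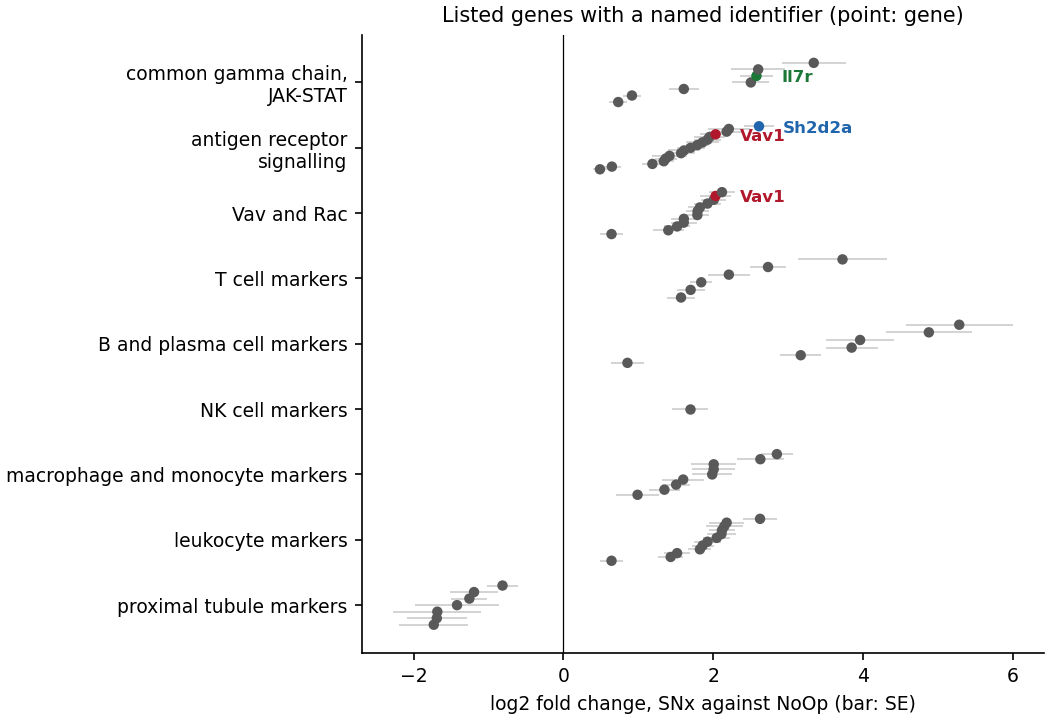
Log2 fold change between SNx and NoOp (horizontal axis, bar: SE) of each listed gene with an identifier, by list, with Il7r, Sh2d2a and Vav1 in colour. All listed genes lie above 0 except the 7 proximal tubule markers. Sh2d2a (2.61) is the highest of the antigen receptor signalling list. Vav1 (2.03) is below only Coro1a (2.12) in the Vav and Rac list, and Il7r (2.58) lies among the other genes of its list.

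Markers of leukocytes rose together with the members. The marker lists share genes with the signalling lists and are not independent of them. Coro1a, Nckap1l, Rac2, Hcls1 and Arhgdib are also in the Vav and Rac list, and Cd2, Cd4 and Cd6 in the antigen receptor list. All 12 leukocyte markers had an identifier and rose (median log2 fold change 1.99), and their summed level was 301 to 576 CPM in SNx against 106 to 156 CPM in NoOp. Of 15 T cell markers 6 had an identifier (Cd2, Cd4, Cd6, Foxp3, Tcf7 and Trbc2), all 6 rose, and their sum was 75.2 to 142 CPM against 23.4 to 37.1 CPM. Tcf7, a transcription factor of T cells (1.84, SE 0.14), Trbc2, a constant segment of the T cell receptor beta chain (2.73, SE 0.24), and Cd6, a T cell surface receptor (1.70, SE 0.19), had the lowest p-values. Of 12 B and plasma cell markers 6 had an identifier and rose, with log2 fold changes from 0.86 for Blnk to 5.28 for Pax5 and a median of 3.90. NoOp counts were 0 to 4 for Pax5, 5 to 11 for Fcer2, 3 to 17 for Blk and 6 to 15 for Cd79b. The size of these rises is thus imprecise. Cd22 (3.17, SE 0.28), Blk (3.85, SE 0.35) and Cd79b (3.96, SE 0.45), a chain of the B cell receptor, had the lowest p-values. Their sum, 47.6 to 146 CPM against 34.1 to 40.0 CPM, was largely made up of Blnk (5.85 log2 CPM in SNx and 5.07 in NoOp), and 1 of the 6 was at 0 in some library. Of 7 natural killer cell markers only Klrk1 had an identifier (1.69, SE 0.24). Of 12 macrophage and monocyte markers 9 had an identifier and all 9 rose, including Mrc1, Cd68 and Csf1r (2.85, 2.63 and 1.51), with sums of 220 to 656 CPM against 92.1 to 136 CPM.

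The members were set against these sums within SNx, in 12 relations added after the data were seen. Vav1 followed the leukocyte sum with r = 0.84 (permutation p = 0.000590, adjusted 0.00708) and rho = 0.76 (permutation p = 0.00629, adjusted 0.0316), and kept r = 0.85 without the pair of libraries farthest from the median. It also followed the macrophage sum (r = 0.79, permutation p = 0.00143, adjusted 0.00858) and the T cell sum (r = 0.75, permutation p = 0.00705, adjusted 0.0211), the latter at r = 0.60 without the farthest pair. Both Sh2d2a (r = 0.75, permutation p = 0.00530, adjusted 0.0211) and Vav1 (r = 0.71, permutation p = 0.00977, adjusted 0.0234) followed the B cell sum, at r = 0.52 and 0.47 without the farthest pair. The B cell sum was largely made up of Blnk. For Sh2d2a, r with the leukocyte sum was 0.46 (permutation p = 0.129, adjusted 0.172). Il7r had its highest r with the T cell sum (0.61, permutation p = 0.0322, adjusted 0.0645) and 0.08 with the macrophage sum. With the leukocyte sum Il7r had r = 0.55 (permutation p = 0.0588, adjusted 0.101), r = 0.76 without the farthest pair (permutation p = 0.0110), and rho = 0.70 (permutation p = 0.0138, adjusted 0.0331), so the ranks passed and the linear relation over all 12 did not. The B cell sum itself ran with the index, at r = -0.88 with Slc3a1 (permutation p = 0.000140, adjusted over 8 relations 0.00112). Blnk, which dominates this sum, had a slope of -0.37 on Slc3a1 (edgeR adjusted p = 4.70e-05). Fcer2 and Pax5 also had negative slopes past FDR < 0.05, while Cd22, Blk and Cd79b did not pass. The leukocyte sum (r = -0.12), the T cell sum (r = -0.06) and the macrophage sum (r = -0.57, adjusted permutation p = 0.124) did not pass. With Lcn2 the macrophage sum had r = 0.55 (adjusted permutation p = 0.124). For Vav1 itself r was -0.60 with Slc3a1 and 0.50 with Lcn2. Of the 9 macrophage markers, 6 had a negative slope on Slc3a1 past FDR < 0.05 and 0 a positive one. Over all tested genes 26.2% had such a negative slope. It was also found for 8 of 17 antigen receptor signalling genes, 6 of 12 Vav and Rac genes and 3 of 7 common gamma chain genes. Among the other markers it was found for 3 of 6 of B cells, 1 of 12 of leukocytes and 1 of 6 of T cells.

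The members were then taken relative to these sums, in which abundant markers weigh most, among them Arhgdib and Itgb2 with smaller log2 fold changes (0.64 and 1.43). Single markers rose as much as the members, since Ptprcap (2.63) had a larger log2 fold change than all 3 and 5 others (Ptprc, Cd53, Coro1a, Itgal and Cd37) had a larger one than Vav1. The log2 ratio of member to leukocyte sum was higher in SNx than in NoOp by 0.77 for Sh2d2a, 0.75 for Il7r and 0.29 for Vav1 (two-sided exact permutation tests over 6188 splits, n = 12 and 5, p = 0.000162, 0.000646 and 0.0160, adjusted over 12 ratios 0.000485, 0.00129 and 0.0189). Against the T cell sum the differences were 0.76 for Sh2d2a, 0.73 for Il7r and 0.28 for Vav1 (exact permutation tests, p = 0.000162, 0.000162 and 0.0427), where 0.000162 is the smallest p these splits can give. Cd4 weighed most in this sum, with the highest mean level of the 6 T cell markers in both groups and the smallest log2 fold change (1.57). Trbc2 (2.73) and Foxp3 (3.73, with 3 to 20 counts per NoOp library) had larger log2 fold changes than all 3 members, and Cd2 (2.21) a larger one than Vav1 only. Tcf7 (1.84) and Cd6 (1.70) were below all 3. A rise of the members beyond that of T cells is therefore not shown by these ratios. The difference of Vav1 against the leukocyte sum missed the threshold without NoOp 2 or NoOp 5 (0.25 and 0.24, exact permutation p = 0.05 and 0.0566), and that against the T cell sum when any 1 of 9 libraries was left out. The part of leukocyte numbers in the rise of the members was not tested.

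The genes whose levels over the 12 SNx libraries were most like those of the members were taken from 1897 named genes whose mean level reached 1 log2 CPM, by Pearson r, as a description. The points share libraries and their scaling. For Vav1 these were Lcp2 (0.95), the adapter SLP-76 of antigen receptor signalling, the leukocyte myosins Myo1g (0.95) and Myo1f (0.94), the phosphoinositide 3-kinase subunit Pik3cd (0.94) and the GTPase-activating protein Arhgap25 (0.94). For Sh2d2a they were the kinesin Kif21b (0.88), the potassium channel Kcnn4 (0.87), Arhgap45 (0.87), Zfp365 (0.85) and Sipa1 (0.85), a Rap GTPase-activating protein. For Il7r they were the integrin chain Itgb7 (0.82), the receptor Cd40 (0.82), the adapters Dok2 (0.81) and Dapp1 (0.76), and the chloride channel Ano1 (0.76). All 15 rose in SNx, with log2 fold changes from 0.70 for Sipa1 to 3.07 for Itgb7. Of the 2003 tested genes with a symbol, 53.4% were significantly higher in SNx, and the 15 were picked for likeness to genes that rose.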

How the data were processed

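The 12 SNx and 5 NoOp kidney libraries were used. Per the labels, RNA was depleted of ribosomal RNA and made into strand-specific paired-end libraries, and the submitters' processing notes name Salmon, limma and the build rn6. The authors deposited estimated counts per gene, which were whole numbers, and normalized log2 values for 13318 of the 23487 genes, used for an alternative. The 34 columns of the whole-series tables repeat these values and were not used. Counts were filtered with filterByExpr, scaled by TMM and tested with edgeR 4.0.16 (glmQLFTest, two-sided, Benjamini-Hochberg over all genes) in R 4.3.3. Slopes used only the SNx libraries with log2 CPM (prior count 2) of the index gene as covariate. Correlations and exact permutation tests used Python 3.11.15 and scipy 1.17.1. The code was tested on simulated counts. Alternatives included limma-voom with limma 3.58.1, the normalized values in limma, DESeq2 1.42.0, other scalings, filters and prior counts, and each library left out. The members and lists were chosen with earlier results of these data known. Named genes are the members, the index genes, up to 3 genes per list by p-value and the 5 named genes most like each member. P-values rest on the variation between these libraries, which are assumed to be 1 per rat.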

Additional observations from a re-analysis of the deposited data

Results flagged for a closer look

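Among 77 genes examined over the 5 NoOp libraries, 10 had a library that stood apart from the other 4 by Dixon's test, where chance flags about 1 in 20, or 3.85 of 77. In 8 of the 10 it was NoOp 5, which was low. Its levels were -0.44 log2 CPM for Il7r, 1.65 for Il2rg, 2.85 for Ptprc, 1.48 for Cd37, 2.86 for Arhgap30, 0.25 for Klrk1, 1.75 for Aif1 and 2.71 for Adgre1. These genes share a library and are not independent. For Il7r the spread of the 5 NoOp libraries was no larger than that of counting (chi-square per degree of freedom 0.743). NoOp 3 was high for Ptprcap at 1.30 log2 CPM, and NoOp 1 was low for Aqp1 at 10.99 log2 CPM.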

How the results depend on the processing

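The rise of the 3 members kept its direction and stayed past FDR < 0.05 under all 26 alternatives (9 other settings and 17 leave-one-out fits), with log2 fold changes of 2.45 to 2.79 for Il7r, 2.51 to 2.83 for Sh2d2a and 1.91 to 2.25 for Vav1. With library size alone as the scale, 74.6% of all calls were higher in SNx instead of 52.2%, and the median of all genes was 0.23 instead of 0.02. No paired analysis was possible because the labels carry no replicate numbers, and those used here only name the libraries. Counts in the controls, 13 to 38 per library for Sh2d2a and Il7r, limit the precision of their levels there. The cause of the changes below was not tested.

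On Slc3a1, the slope of Sh2d2a was -0.16 (adjusted p = 0.0766) with the number range as a term and -0.25 (adjusted p = 0.0517) with the total count as a term, and the latter term turned the slope of Il7r to -0.14 on Slc3a1 and 0.043 on Lcn2. It also moved the number of genes past the threshold from 7928 to 5129 on Slc3a1 and from 7013 to 3356 on Lcn2. When single libraries were left out, slopes on Slc3a1 lay from -0.19 to -0.13 for Sh2d2a, -0.22 to -0.16 for Vav1 and -0.037 to 0.085 for Il7r. Those on Lcn2 lay from 0.11 (without SNx 11) to 0.24 for Sh2d2a, from 0.17 to 0.32 for Vav1 and from -0.23 to 0.0046 for Il7r, the upper end without SNx 5.

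Leave-one-out correlations with Slc3a1 ranged from -0.73 to -0.57 for Sh2d2a, -0.76 to -0.44 for Vav1 and -0.11 to 0.34 for Il7r. Those with Lcn2 ranged from 0.32 to 0.66, 0.36 to 0.76 and -0.52 to 0.057. For Sh2d2a and Vav1 both passed only without SNx 6. Sh2d2a with Vav1 ranged from 0.60 to 0.78 and was 0.77 (adjusted permutation p = 0.0310) with library size alone. Without the 2 farthest libraries Il7r had r = -0.11 with Slc3a1 and -0.81 with Lcn2, and in the upper number range -0.35 and 0.23.

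Leave-one-out differences in spread lay from -0.017 to 0.12 for Sh2d2a, -0.016 to 0.13 for Vav1 and 0.10 to 0.26 for Il7r. The difference of Sh2d2a and Vav1 had leave-one-out r from -0.11 to 0.29 with Slc3a1 and -0.24 to 0.15 with Lcn2. Without the 2 farthest libraries it had -0.32 and 0.18, and in the upper range -0.56 and 0.46. Il7r had leave-one-out r from -0.13 to 0.34 with the B cell sum and from -0.084 to 0.36 with the macrophage sum, and -0.18 with the former without the 2 farthest libraries.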
